A study of Homo sapiens with 12 samples.

Results

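The matrix metalloproteinase (MMP) cluster on chromosome 11q22 was taken as the 9 genes MMP1, MMP3, MMP7, MMP8, MMP10, MMP12, MMP13, MMP20 and MMP27. They were chosen by name and position, with earlier results of these data known, and all 9 of them were found among the 23368 gene symbols of the deposited count table. RNA was sequenced from cells of 2 human breast adenocarcinoma lines on day 3 of 3D culture. MDA-MB-231 cells (ER−, basal) and T47D cells (ER+, luminal A) were each encapsulated as single cells, at 5000 cells per μl, in a poly(ethylene glycol) hydrogel with a peptide crosslinker that cells can degrade. The hydrogel carried either GFOGER, an integrin-binding peptide that mimics collagen, or IKVAV, a peptide that mimics laminin. The GFOGER groups had 3 libraries for either cell line, the IKVAV group of T47D cells also had 3, and that of MDA-MB-231 cells had 2, since its remaining replicate was not analysed here. All groups shared the polymer, the crosslinker, the medium with serum and a short incubation with collagenase that freed the cells before lysis. Each library was RNA pooled from 3 gels, and each subtype was represented by 1 established cell line. Since the labels do not say that replicates came from separate cultures, the p-values measure the spread between these libraries, which may be technical.

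MMPs are secreted as inactive precursors that are cut to give zinc-dependent proteases. MMP1, MMP8 and MMP13 are collagenases, which cut the triple helix of fibrillar collagen. MMP3 and MMP10 are stromelysins, which cut proteoglycans, laminin and fibronectin and can activate the precursors of other MMPs. MMP7 (matrilysin) lacks the C-terminal hemopexin domain that the other members carry, MMP12 is an elastase known from macrophages, MMP20 (enamelysin) is known from developing tooth enamel, and MMP27 is little studied. Transcription of several of these genes is known to respond to AP-1 and ETS factors, and MMP1 is widely studied in the invasion of breast cancer cells.

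The members lie within 435.2 kb of hg19, in the order MMP7, MMP20, MMP27, MMP8, MMP10, MMP1, MMP3, MMP12 and MMP13, from 102391239 to 102826463 on chromosome 11. MMP1 spans 102660641 to 102668966, MMP3 spans 102706528 to 102714342, and MMP13 spans 102813721 to 102826463. In the GENCODE annotation lifted to GRCh37, the assembly of hg19, all 9 are on the minus strand. What they share in sequence is the catalytic site, in which histidines hold the zinc. Its 33 bases lie in coding exon sequence, within exon 5 of the main transcript of each of the 9 genes. The sites are shown for the 3 members with enough reads to be tested and for MMP10, the nearest copy of MMP3. They are written 5′ to 3′ on the coding (minus) strand, with the codons of the zinc-binding histidines in capitals. The coordinates are chr11:102666280-102666312 for MMP1, chr11:102711266-102711298 for MMP3, chr11:102647449-102647481 for MMP10 and chr11:102822844-102822876 for MMP13.
MMP1: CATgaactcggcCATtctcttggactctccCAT
MMP3: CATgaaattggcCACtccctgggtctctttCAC
MMP10: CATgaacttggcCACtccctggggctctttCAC
MMP13: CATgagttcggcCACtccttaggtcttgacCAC

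The site of MMP1 differed from that of MMP3 at 9 of the 33 bases and from that of MMP13 at 11, whereas MMP3 and MMP10 differed at 2. This bears on how reads can be assigned, since the libraries were read as 51 bases from 1 end. Of the 1921 stretches of 51 bases in the main MMP1 transcript, 0 came within 2 mismatches of another member, and the same held for MMP7, MMP8, MMP12, MMP13, MMP20 and MMP27. In MMP3, 57 of 1772 stretches were identical to MMP10 and 187 came within 2 mismatches of it. How reads that match more than 1 place were counted is not given in the sources used here. MMP10 had at most 3 reads in the libraries in which MMP3 had 549 to 697.

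The reads on genes came to 14338238 in the smallest library and 18452145 in the largest. A count of 3, the limit that a count of 0 allows, corresponded to 0.163 to 0.209 cpm (counts per 1000000 reads on genes) in a library, and such limits cover counting error only. Counts of replicates varied 2.51 to 18.6 times as much as sampling alone would give, and no pair agreed within sampling noise. Markers matched the labels of both lines. The summed level of 7 luminal markers was 350 to 420 cpm in MDA-MB-231 libraries and 5430 to 6380 cpm in T47D libraries, and that of 6 basal and mesenchymal markers was 4980 to 7650 and 118 to 134 cpm. The library totals implied by the deposited RPKM values fell into 2 sets, with MDA-MB-231 IKVAV replicate 1, all T47D GFOGER libraries and T47D IKVAV replicate 3 in the low set.

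MMP1 dominated the cluster in every library, where levels are cpm with TMM normalization. In MDA-MB-231 cells it held 99.0% to 99.3% of all reads on the 9 members, and in T47D libraries 90.0% to 96.4%, where the origin of its reads was not tested. With GFOGER it was between the 3rd and the 7th most abundant gene of the MDA-MB-231 libraries and took 0.317% to 0.388% of all their reads. With IKVAV it ranked between 132 and 145 and took 0.0647% to 0.0710%. In T47D cells its rank lay between 10374 and 10720.

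**Figure D1:**
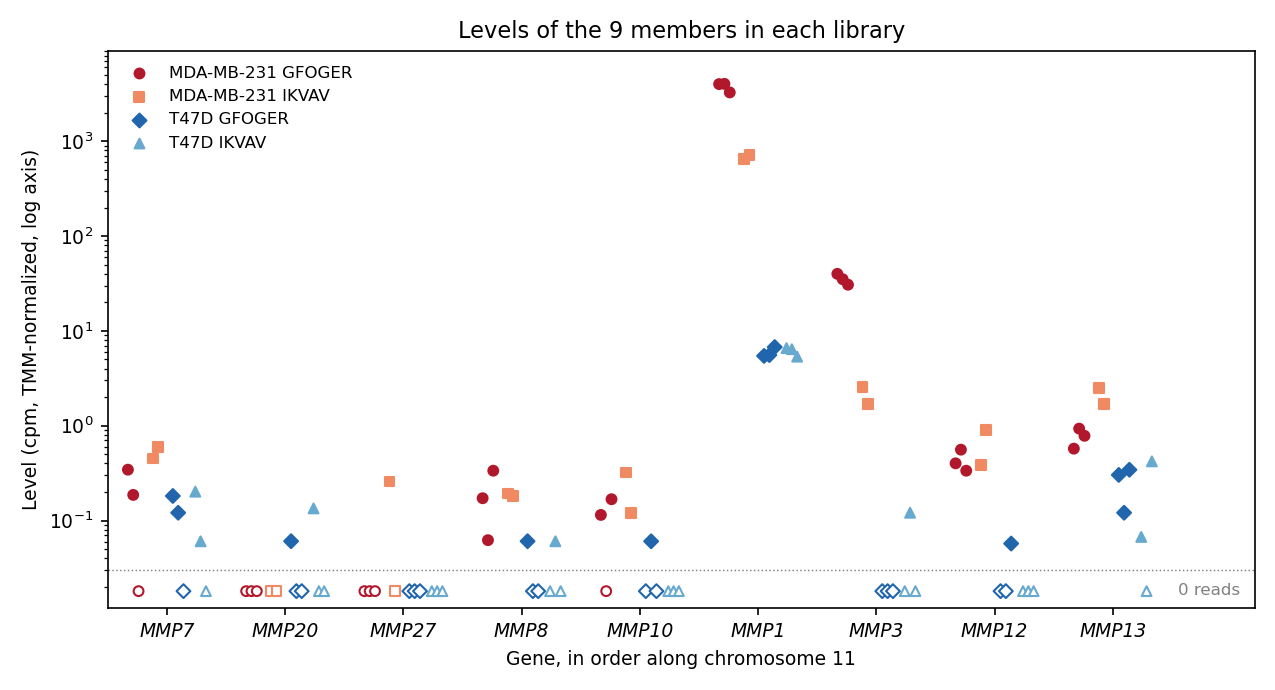
Level of each member in each of the 11 libraries, in cpm on a log axis, with genes in order along chromosome 11 and open symbols below the dotted line for libraries with 0 reads. MMP1 lies at 3271 to 4027 cpm with GFOGER and at 655 to 721 cpm with IKVAV in MDA-MB-231 cells, and at 5.35 to 6.75 cpm in all T47D libraries.

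Levels of different genes were compared as cpm per kilobase of gene length. In MDA-MB-231 cells with GFOGER the order was MMP1 at 1833, MMP3 at 19.3, MMP13 at 0.280, MMP12 at 0.230 and MMP7 at 0.158 cpm per kb. With IKVAV it was MMP1 at 335, MMP3 at 1.16, MMP13 at 0.771, MMP7 at 0.470 and MMP12 at 0.343 cpm per kb. The library ranges of MMP1 and MMP3 overlapped those of no other member with GFOGER. With IKVAV the range of MMP13, 0.619 to 0.923 cpm per kb, ended at the lower library of MMP3, 0.920 cpm per kb, so these 2 neighbours did not separate beyond their spread. With GFOGER MMP13 overlapped MMP12, and MMP12 overlapped MMP7. With IKVAV MMP7 overlapped MMP12 and lay below MMP13, and MMP12 lay above MMP10. MMP20 had 0 reads in all 5 MDA-MB-231 libraries, which allows up to 0.0563 cpm over the GFOGER libraries and 0.0920 cpm over the IKVAV libraries. In T47D cells MMP1 stood at 2.88 cpm per kb with GFOGER and 2.97 with IKVAV, and every other member had a mean under 0.1 cpm per kb.

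**Figure D2:**
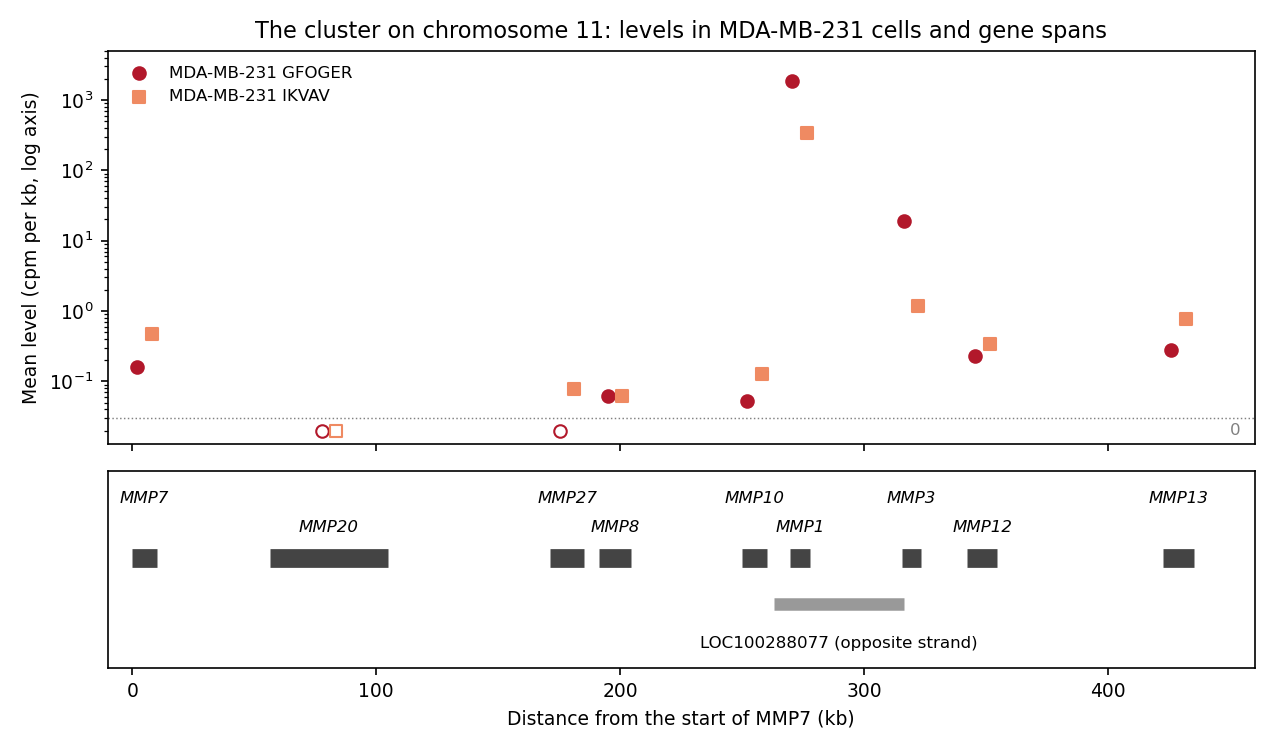
Mean level per kilobase of each member in MDA-MB-231 cells (log axis, open symbols for 0) above the gene spans, as distance in kb from the start of MMP7. The high levels are those of MMP1 (1833 and 335 cpm per kb) and, with GFOGER, of its neighbour MMP3 (19.3 cpm per kb), and the grey bar marks LOC100288077, which spans all of MMP1.

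The first comparison asked how the members responded to the collagen mimic relative to the laminin mimic in MDA-MB-231 cells. MMP1 and MMP3 rose with GFOGER and MMP13 fell. Only these 3 of the 9 members passed the filter on low counts, so the 2 that rose and the 1 that fell are not a count over the whole cluster. Of the 14092 genes tested, 3.12% were called higher and 6.46% lower, where a gene counts as called if it changed more than 2-fold with an adjusted p below 0.05. Fold changes are GFOGER relative to IKVAV. Every test is the quasi-likelihood test of edgeR, and p-values were adjusted by Benjamini-Hochberg over all genes of the comparison. In bulk RNA, fewer expressing cells and less RNA per cell cannot be told apart.

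MMP1, the interstitial collagenase, had 4005, 4027 and 3271 cpm in the GFOGER libraries and 655 and 721 cpm in the IKVAV libraries. The lowest GFOGER library was far above the highest IKVAV library. The means were 3767 ± 430 cpm (SD, n = 3) and 687.9 ± 46.96 cpm (SD, n = 2). This was a log2 fold change of 2.44 (SE 0.098, 95% interval 2.24 to 2.65), or 5.44-fold, with an adjusted p of 2.27e-11 in edgeR. It rests on 58520 to 69909 reads per library against 10175 and 12002, and 72 genes had a larger log2 fold change.

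MMP3, the stromelysin next to it, had 39.9, 35.1 and 30.7 cpm with GFOGER and 2.57 and 1.68 cpm with IKVAV. The groups were again far apart, with 549 to 697 reads against 28 and 40. Its log2 fold change was 4.04 (SE 0.206, 95% interval 3.61 to 4.48), or 16.5-fold, with an adjusted p of 4.06e-10 in edgeR, and 15 genes had a larger one. MMP3 therefore had more reads per MMP1 read with GFOGER. There were 9.97, 8.71 and 9.38 MMP3 reads per 1000 MMP1 reads with GFOGER and 3.93 and 2.33 with IKVAV, ranges that do not overlap. The difference between the fold changes of the 2 genes was not tested itself.

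MMP13, collagenase-3, went the other way at a much lower level. It had 0.573, 0.931 and 0.782 cpm with GFOGER (10, 15 and 14 reads) and 2.51 and 1.68 cpm with IKVAV (39 and 28 reads). The groups did not overlap, and IKVAV replicate 1 was the highest library. The log2 fold change was -1.46 (SE 0.405, 95% interval -2.32 to -0.61), with an adjusted p of 0.00775 in edgeR. The call was lost without IKVAV replicate 1 (log2 fold change -1.15) and with the 2-fold threshold inside the test (adjusted p 0.742 in edgeR). It was also lost with a term for the sets of implied library totals (-1.15). In MDA-MB-231 cells only IKVAV replicate 1 is in the low set, so this term repeats leaving that library out and is no separate check. Over all alternatives its adjusted p ran from 0.000533 to 0.742 and its log2 fold change from -1.72 to -1.15.

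The other 6 members had too few reads for the filter. MMP12 had 7, 9 and 6 reads with GFOGER and 6 and 15 with IKVAV. MMP7 had 6, 3 and 0 reads with GFOGER and 7 and 10 with IKVAV. MMP8, the neutrophil collagenase, had 3, 1 and 6 reads against 3 and 3, MMP10 had 2, 0 and 3 against 5 and 2, and MMP27 had 0 in all GFOGER libraries against 4 and 0. In a fit without the filter, 0 of these members were called, beside 1397 of the 18845 genes tested. MMP7 had a log2 fold change of -1.54 in it (SE 0.959, adjusted p 0.213 in edgeR). As a ratio of pooled reads, MMP7 with GFOGER was 0.324 of its IKVAV level, with a 95% counting interval of 0.127 to 0.769 that does not include the spread between libraries. Differences in MMP8, MMP10, MMP12 and MMP27 were not detected, and at these counts moderate ones could be missed. For MMP12 the pooled ratio was 0.641, with a 95% counting interval of 0.336 to 1.23.

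**Figure D3:**
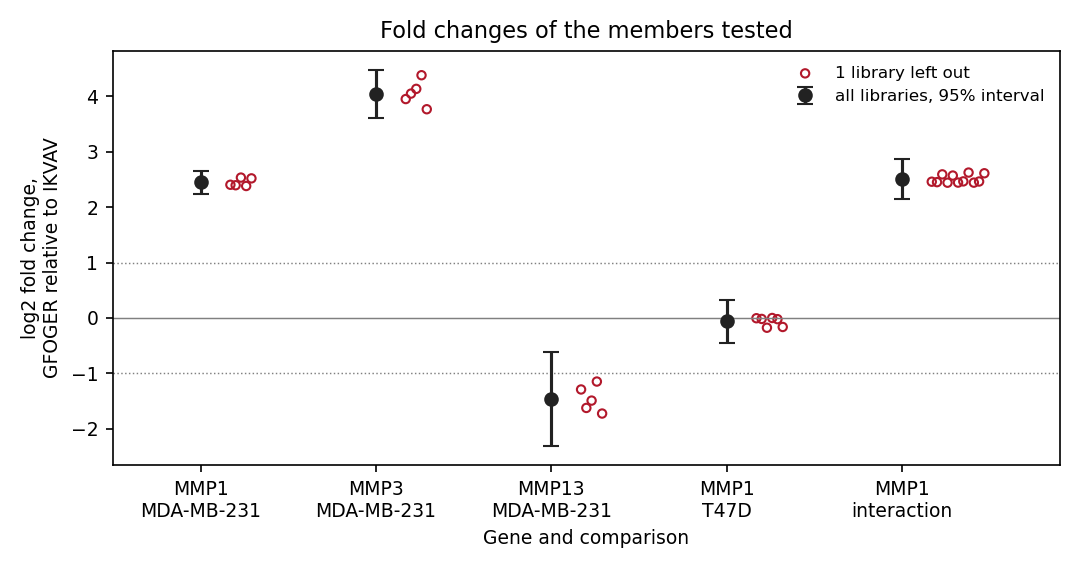
Log2 fold change of GFOGER relative to IKVAV for the members tested (black, 95% interval of the edgeR fit) and the same value with each library left out in turn (red circles), with dotted lines at a 2-fold change. MMP1 and MMP3 in MDA-MB-231 cells stay above 2.37 and 3.76, MMP13 runs from -1.72 to -1.15, and MMP1 in T47D cells stays near 0.

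The same question in T47D cells gave no call among the members. Of 13642 genes tested, 3 (0.022%) were called in either direction, and 1531 had an unadjusted p under 0.05. MMP1, the only member with enough reads to be tested, had 5.45, 5.56 and 6.75 cpm with GFOGER (90, 92 and 118 reads) and 6.58, 6.40 and 5.35 cpm with IKVAV (98, 106 and 89 reads). The groups overlapped throughout. The log2 fold change was -0.06 (SE 0.177, 95% interval -0.44 to 0.32), with an adjusted p of 0.933 in edgeR. MMP13 had 5, 2 and 6 reads with GFOGER and 1, 0 and 7 with IKVAV, and MMP7 had 3, 2 and 0 against 3, 1 and 0. MMP3 had 2 reads in 1 IKVAV library and 0 in the other 5 libraries. MMP8, MMP10, MMP12 and MMP20 had at most 2 reads in any T47D library, and MMP27 had 0 in all 6, which allows up to 0.0604 cpm over the GFOGER libraries and 0.0639 cpm over the IKVAV libraries.

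The MMP1 level in T47D cells was 0.237% of its mean level in the MDA-MB-231 libraries. That mean mixes 3767 cpm with GFOGER and 687.9 cpm with IKVAV, while T47D cells had 5.92 and 6.11 cpm. By peptide the share was therefore lower with GFOGER and higher with IKVAV. Over both peptides, genes that mark basal and mesenchymal cells stood at similar shares, with VIM at 0.222%, ZEB1 at 0.220%, MSN at 0.201%, AXL at 0.240% and CAV1 at 0.127%. CD44, with 115 cpm in the T47D libraries, stood at 6.01%. Among the 582 genes with at least 300 cpm in MDA-MB-231 cells, 35 had less than 1% of that level in T47D cells, 0 of them were without reads, and the lowest share was 0.0906%. In the other direction, the luminal markers PGR, ESR1, FOXA1 and CDH1 in MDA-MB-231 cells were at 0.182%, 0.224%, 0.175% and 0.326% of their T47D level, while GATA3 was at 1.74%, KRT8 at 24.2% and KRT18 at 28.8%. Whether the MMP1 reads in the T47D libraries came from T47D cells was not tested. The level, rank and share of MMP1 in the T47D libraries rest on these reads. So do its T47D fold change, its interaction and its fold changes between the cell lines, and its peptide fold change in MDA-MB-231 cells does not.

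**Figure D4:**
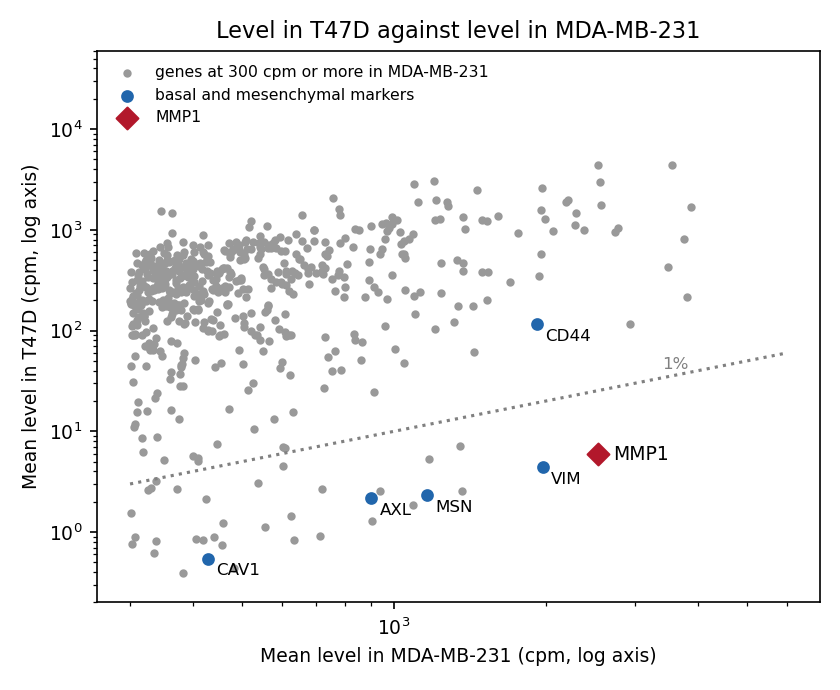
Mean level in T47D libraries against mean level in MDA-MB-231 libraries (cpm, both axes log) for the 582 genes with at least 300 cpm in MDA-MB-231 cells, with a dotted line at 1%. MMP1 (red, 0.237% of a mean over both peptides) lies in the band of VIM, MSN, AXL and CAV1 (blue, 0.127% to 0.240%) at the lower edge of the genes.

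The cell lines were then compared with the peptide held the same. MMP3 and MMP13 passed the filter in this fit through the MDA-MB-231 libraries, since the T47D libraries alone left only MMP1, so their direction was largely set by the filter and the counts of members are no support. With GFOGER, the 3 members tested were higher in MDA-MB-231 cells, a direction in which 23.7% of 15320 genes were called. MMP1 was higher by a log2 fold change of 9.33 (SE 0.131, 95% interval 9.05 to 9.60, adjusted p 2.09e-21 in edgeR), or 643-fold, a size that depends on the T47D reads whose origin was not tested. MMP3 had 1811 reads in the 3 MDA-MB-231 libraries and 0 in the 3 T47D libraries, which made it at least 562-fold higher when 3 reads over the T47D group are taken as the limit. MMP13 was higher by a log2 fold change of 1.56 (SE 0.615, 95% interval 0.27 to 2.84, adjusted p 0.0241 in edgeR). This last call was lost without MDA-MB-231 GFOGER replicate 2 (adjusted p 0.0682 in edgeR), without T47D GFOGER replicate 2 (adjusted p 0.0973 in edgeR) and with the 2-fold threshold inside the test (adjusted p 0.166 in edgeR).

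With IKVAV, these 3 members, which the same filter kept, were higher in MDA-MB-231 cells, where 23.6% of the genes tested were called in that direction. MMP1 was higher by a log2 fold change of 6.82 (SE 0.125, 95% interval 6.56 to 7.08, adjusted p 7.17e-20 in edgeR), or 113-fold, with the same limit. MMP13 was higher by 3.60 on the log2 scale (SE 0.630, 95% interval 2.29 to 4.92, adjusted p 2.78e-05 in edgeR). This value was 5.73 without T47D IKVAV replicate 3, which holds 7 of the 8 T47D reads, and 3.03 without T47D IKVAV replicate 2. MMP3 had 68 reads in the 2 MDA-MB-231 libraries and 2 in the 3 T47D libraries, a ratio of levels of 48.9 with a 95% counting interval of 13.0 to 412, and its adjusted p was 1.97e-07 in edgeR. Both T47D reads were in IKVAV replicate 2. The 2 comparisons of cell lines use different libraries, but both come from the fit of all 4 conditions.

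Some members below the filter also had more reads in MDA-MB-231 cells. MMP12 had 22 reads against 1 with GFOGER, a ratio of levels of 20.5 with a counting interval of 3.31 to 846, and 21 against 0 with IKVAV, at least 10.1-fold higher. In the fit without the filter MMP12 was called with either peptide (adjusted p 0.00137 and 4.55e-05 in edgeR). That fit called 7814 of 20039 genes with GFOGER and 7597 with IKVAV, in either direction. MMP7 (17 reads against 4) and MMP10 (7 against 0) were called in it with IKVAV alone, and whether that differs from GFOGER was tested in the same fit, with an adjusted p for the interaction of 0.535 and 0.559 in edgeR. MMP8 and MMP12 are known from neutrophils and macrophages. The summed level of 7 leukocyte markers was 12.0 to 15.6 cpm in MDA-MB-231 and 2.06 to 4.29 cpm in T47D libraries, with 2 and 3 of the 7 markers at 0. In MDA-MB-231 cells it was mostly CD14 (9.27 cpm) and CSF1R (4.07 cpm), with PTPRC at 0.223 cpm. Each culture held 1 established cell line and no added leukocytes, and these markers were not related to the MMP8 and MMP12 reads by a test.

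Whether the cell lines differed in their response to the peptides was tested as an interaction of cell line and peptide, in which 2.25% of 15320 genes were called positive, that is, with a larger GFOGER to IKVAV ratio in MDA-MB-231 cells. MMP1 and MMP3 were among them. The difference for MMP1 was 2.51 on the log2 scale (SE 0.173, 95% interval 2.15 to 2.87), with an adjusted p of 9.32e-09 in edgeR. For MMP3 the adjusted p was 0.0307 in edgeR, but the T47D side of the interaction held 2 reads in all, and its fitted size is no bound. The MMP3 call was lost without T47D IKVAV replicate 2, which holds those 2 reads (adjusted p 1 in edgeR), without MDA-MB-231 IKVAV replicate 2 (adjusted p 0.0516 in edgeR) and with the 2-fold threshold inside the test (adjusted p 0.316 in edgeR). For MMP13 the difference was -2.05 (SE 0.968, 95% interval -4.07 to -0.02), with an adjusted p of 0.137 in edgeR. It was called with edgeR's likelihood ratio test (adjusted p 0.0418) and without T47D IKVAV replicate 3 (difference -4.18, adjusted p 0.0156 in edgeR). The interaction uses the same libraries as the peptide comparisons.

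Genes inside the cluster or within 1 Mb of its ends that are not members were also described. Of 11 such neighbours 9 were tested in MDA-MB-231 cells, where 1 rose and 0 fell, and the median log2 fold change was 0.021 beside 0.0039 for all genes. The 8 that were not called had log2 fold changes from -0.24 to 0.56. The 1 that rose was LOC100288077, a non-coding gene from 102654407 to 102707497 on chromosome 11, with 18, 28 and 12 reads with GFOGER and 1 and 2 with IKVAV. Its log2 fold change was 3.50 (SE 0.788), with an adjusted p of 0.00156 in edgeR, and it had 0 reads in all T47D libraries. LOC100288077 passed the filter on low counts only through its GFOGER libraries. Its direction was therefore largely set by the filter, and the call is no support. It spans all of MMP1 on the opposite strand, where GENCODE names it WTAPP1, and 150 of the 1971 exon bases of MMP1 coincide with its exons. It had 2.05 to 4.32 reads per 10000 MMP1 reads with GFOGER and 0.983 and 1.67 with IKVAV. The libraries were stranded per the labels, but whether strand was used in counting is not given in the sources used here, and without it reads that fall on those 150 bases cannot be assigned to 1 of the 2 genes.

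The MMPs encoded elsewhere in the genome were mixed. Of 15 such genes 10 were tested in MDA-MB-231 cells, where 1 rose and 2 fell with GFOGER, with a median log2 fold change of -0.61. MMP9, gelatinase B, rose by 1.11 (SE 0.219, adjusted p 0.000687 in edgeR) from 4.76 to 10.3 cpm. MMP2, gelatinase A, fell by 1.82 on the log2 scale (adjusted p 0.0207 in edgeR) at levels under 1 cpm, and MMP17, a membrane-anchored MMP, fell by 1.58 (adjusted p 0.000849 in edgeR). Of the 7 inhibitors, all tested, 1 rose and 3 fell, with a median of -0.22. The tissue inhibitors TIMP1 and TIMP3 fell by 1.06 and 1.25 on the log2 scale (adjusted p 2.49e-08 and 3.43e-09 in edgeR), from 1052 to 509 cpm and from 1433 to 606 cpm. A2M, a broad protease trap, fell by 2.67 (adjusted p 0.00241 in edgeR) from 1.03 to 0.156 cpm. A2M and MMP2 passed the filter on low counts mainly through the IKVAV libraries. Their direction was therefore largely set by the filter, and their calls are no support. TIMP4 rose by 1.00 (adjusted p 0.0279 in edgeR), just over the fold threshold.

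**Figure D5:**
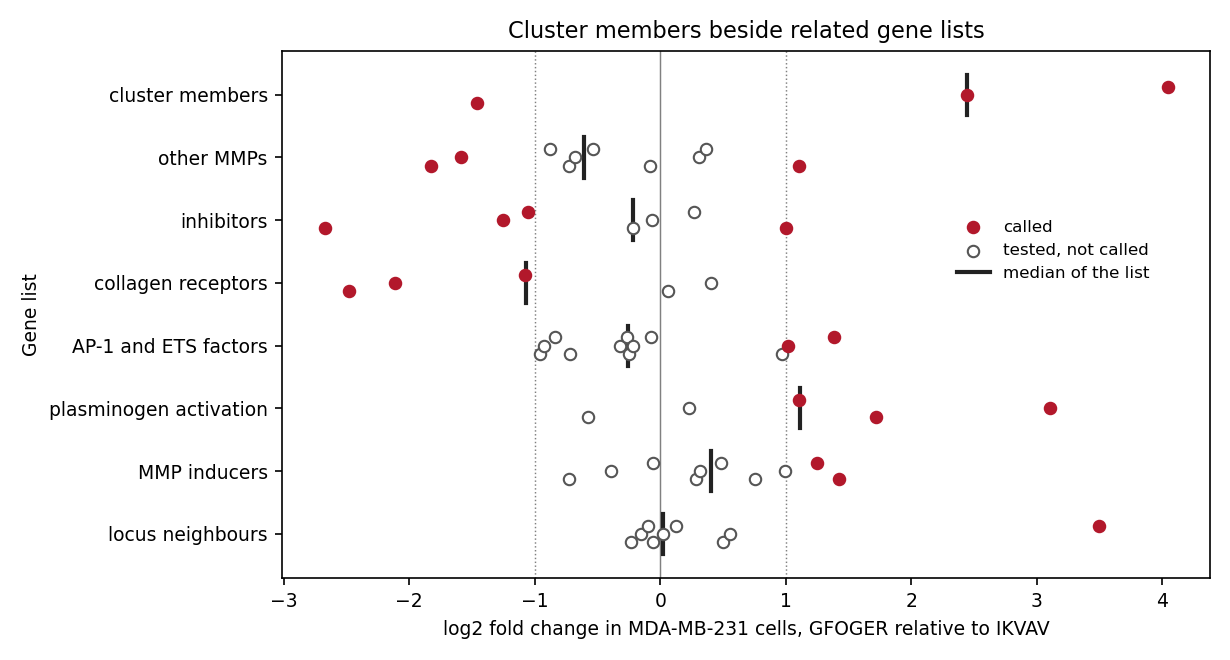
Log2 fold change in MDA-MB-231 cells (GFOGER relative to IKVAV) of each tested gene of the cluster and of 7 related lists, filled where called, with a bar at each list's median and dotted lines at a 2-fold change. The 3 genes called on the plasminogen list lie to the right of the line and the 3 called collagen receptors to the left.

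Genes of plasminogen activation, whose product plasmin can cut MMP precursors, changed in the direction of MMP1 where they were called. Of 6 genes 5 were tested in MDA-MB-231 cells, where 3 rose and 0 fell, with a median log2 fold change of 1.11. SERPINB2, an inhibitor of plasminogen activators, rose by 3.10 (SE 0.312, adjusted p 8.63e-07 in edgeR). PLAU, the urokinase activator, rose by 1.72 (SE 0.098, adjusted p 1.31e-09 in edgeR), from 169 to 562 cpm. The tissue activator PLAT rose by 1.11 (SE 0.093, adjusted p 1.12e-07 in edgeR). The genes that rose thus held both activators and an inhibitor.

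Of 7 collagen receptors 5 were tested in MDA-MB-231 cells, where 0 rose and 3 fell with GFOGER, with a median of -1.07. The integrin subunits ITGA10 and ITGA1, which pair with β1 to bind collagen, both fell. ITGA10 decreased by 2.48 on the log2 scale (adjusted p 1.89e-10 in edgeR), and ITGA1 decreased by 2.11 (adjusted p 1.29e-10 in edgeR). DDR1, a receptor tyrosine kinase for collagen, fell by 1.07 (adjusted p 1.02e-06 in edgeR). The tested receptors that were not called did not fall. Their log2 fold changes were 0.40 (adjusted p 0.000843 in edgeR), a rise under the 2-fold threshold, and 0.06 (adjusted p 0.597 in edgeR). They stood higher than those that fell, at 717 and 1650 cpm with IKVAV and 955 and 1733 cpm with GFOGER. Of the 12 AP-1 and ETS factors, all tested, 2 rose and 0 fell by more than 2-fold, although the median of the list was -0.26. ETS1 rose by 1.39 (SE 0.088, adjusted p 4.69e-09 in edgeR). The AP-1 subunit FOSL1 rose by 1.02 (SE 0.112, adjusted p 2.31e-06 in edgeR), just over the fold threshold. Among the factors not called, log2 fold changes ran from -0.96 (adjusted p 2.02e-07 in edgeR) to 0.97 (adjusted p 5.25e-06 in edgeR). More of these factors decreased than increased. Of 11 cytokines and growth factors known to induce MMPs 10 were tested, of which 2 rose and 0 fell with a median of 0.40. These were IL1A (1.42, adjusted p 4.49e-06 in edgeR) and the EGF receptor ligand HBEGF (1.25, adjusted p 6.35e-08 in edgeR). In T47D cells 1 gene on these lists was called, the AP-1 subunit FOSB, which fell by 1.27 on the log2 scale (adjusted p 0.0412 in edgeR). The lists describe counts and medians only, and no list was compared with other genes by a test.

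The genes whose pattern over the 11 libraries was most like that of each tested member were found among 11148 genes, by the root mean square difference of log2 cpm after each gene was centred on its mean. For MMP1 they were ANKRD1 (0.362), PLAU (0.373) and AXL (0.398), whose mean log2 levels were 2.32, 1.73 and 1.42 higher with GFOGER than with IKVAV in MDA-MB-231 cells, beside 2.45 for MMP1 on this scale. For MMP3 they were DKK1 (0.734), NGFR (0.839) and G0S2 (0.972). For MMP13 they were EBF4 (0.457), CPD (0.560) and RARRES3 (0.569). In the T47D groups with GFOGER and IKVAV, MMP3 had 0 and 2 reads in all, and MMP13 had 13 and 8. Their T47D levels thus depend largely on the small count added before the log, and their distances are not comparable with those of MMP1. The difference between the cell lines makes up most of the MMP1 pattern, so the likeness is mainly that of genes high in MDA-MB-231 cells.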

How the data were processed

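RNA of MDA-MB-231 and T47D cells in GFOGER or IKVAV hydrogels was sequenced as stranded poly(A) libraries. Per the submitters' processing notes, the tools were FastQC, Trim Galore 0.4.4, TopHat2 2.1.0, SAMtools 1.4, bedtools 2.17, HTSeq 0.6.1p1 and edgeR 3.16.5, with hg19. The authors deposited read counts per gene, which are not normalized, and RPKM values (counts scaled by gene length and a library total), which were used only for the totals they imply. Of 24656 entries, 1288 that repeat a symbol were left out. Counts were used for 11 of 12 samples, at 14338238 to 18452145 reads.

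The analysis used edgeR 4.0.16 and, for alternatives, DESeq2 1.42.0 in R 4.3.3. The peptides were compared in a separate fit per cell line, and all 4 conditions shared a fit for the other comparisons, with TMM factors, filterByExpr and Benjamini-Hochberg adjustment. Scripts were tested on simulated data. Levels are TMM-normalized cpm. All 9 members are named, and genes of the other lists only where called in a peptide comparison, at most 4 per list with the largest changes. 1 gene is not reported here and was left out of its list and of the shares of levels. The members and lists were chosen with earlier results of these data known. The shares of levels between cell lines were computed after the values were seen.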

Additional observations from a re-analysis of the deposited data

Results flagged for a closer look

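The interaction of cell line and peptide was called for 2 members, of which MMP3 lost the call under some alternatives. MMP1 had an interaction of 2.51 on the log2 scale (SE 0.173, adjusted p 9.32e-09 in edgeR), with all 3 GFOGER libraries above both IKVAV libraries in MDA-MB-231 cells and overlapping groups in T47D cells, where the origin of the MMP1 reads was not tested. MMP3 had a fitted interaction of 6.75 on the log2 scale (adjusted p 0.0307 in edgeR). Its T47D side held 0 reads with GFOGER and 2 with IKVAV, so this fitted size depends on the handling of zeros and is no bound. The call was lost without T47D IKVAV replicate 2 (adjusted p 1 in edgeR), without MDA-MB-231 IKVAV replicate 2 (adjusted p 0.0516 in edgeR) and with the 2-fold threshold inside the test (adjusted p 0.316 in edgeR).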

How the results depend on the processing

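The alternatives changed the tool (DESeq2 or the likelihood ratio test), the factors (upper quartile or none), the filter (none, or 10 counts in each library), the threshold (2-fold inside the test, or none on the fold), the terms (replicate block, sets of implied totals), the conditions fitted together, and the libraries, each left out in turn. Over the fold changes of members, 241 values kept their direction and side of the threshold, 9 lost the call, 2 gained it and 1 turned. The value that turned was the MMP1 log2 fold change in T47D cells, -0.06, which was 0.15 with the term for implied totals (adjusted p 0.785 in edgeR). MMP1 in MDA-MB-231 cells ran from 2.37 to 2.53 and MMP3 from 3.76 to 4.38, called in all 16 alternatives. With at least 10 counts in every library 1 member was called between the lines with GFOGER, 1 with IKVAV and 1 in the interaction, since only MMP1 was then tested. Of the 11775 genes that this filter kept, 4213 were called with GFOGER, 4157 with IKVAV and 734 in the interaction, in either direction. Without a filter 6 of the 9 were called between the lines with IKVAV, where 7597 of all 20039 genes tested were called in either direction. The 2-fold threshold inside the test left 1 member in the interaction, where 132 of 15320 genes were called in either direction. Leaving out single libraries gave 2 to 3 members called in MDA-MB-231 cells, 0 to 0 in T47D cells, 2 to 4 and 3 to 4 between the lines with GFOGER and IKVAV, and 1 to 3 in the interaction. Where this left 1 library in MDA-MB-231 IKVAV, it was assumed to vary like the other groups. In the MDA-MB-231 fit only IKVAV replicate 1 was in the low set of implied totals, so the term repeats leaving it out. Of all genes in MDA-MB-231 cells 1349 were called, 403 with the threshold inside the test and 6040 by adjusted p alone. Between the lines 7182 of 15320 genes were called with GFOGER and 7032 with IKVAV, and 983 in the interaction, in either direction. In T47D cells 3 were called, and 0 to 94 under the alternatives. Deviations of libraries with the same replicate number correlated at -0.499 to 0.108. They were taken from means of only 2 or 3 libraries, so they cannot tell whether such libraries shared a culture or a day. The replicate block changed no call among the members, with MMP1 at 2.53, MMP3 at 4.13 and MMP13 at -1.48 in MDA-MB-231 cells. An interaction could not be had from fits of each line on its own. Depth limits MMP7, MMP8, MMP10, MMP12, MMP20 and MMP27, with at most 15 reads in any library.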
